A study of Mus musculus with 5 samples.

Results

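The genes described are the receptors for adrenaline and noradrenaline, serotonin, dopamine, acetylcholine (the muscarinic type) and histamine. They were chosen by symbol alone, as the protein-coding genes on chromosomes 1 to 19 of the mouse mm9 annotation (GENCODE vM1) named Adra, Adrb, Htr, Drd, Chrm or Hrh with a receptor number, so that no measured value decides which gene is a member, although the group itself was picked with earlier results of these data known. This gave 36 of 21418 genes, of which 9 were adrenergic, 13 serotonin, 5 dopamine, 5 muscarinic and 4 histamine receptor genes. H3K27me3, the histone mark placed by Polycomb Repressive Complex 2 (PRC2), was profiled by ChIP-Seq in mouse embryonic fibroblasts (MEFs) that carried floxed Eed, the gene of a PRC2 subunit, in the parental line and in the 3 lines analysed. The parental MEFs came from a mouse embryo at E13.5, and stable expression of H3.3 K27R, H3.3 K27M or human EZHIP (hEZHIP) was introduced by lentivirus. K27M places methionine, and K27R arginine, at the lysine of histone H3 that PRC2 methylates. K27M and EZHIP, a protein of posterior fossa ependymoma, are both inhibitors of PRC2, and K27R served as the reference for both. Each list came from 1 library, and the parental Control and the EEDnull line, which was a single clone, were not analysed here.

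The deposited lists gave the positions of enriched intervals without height or read count, so library depth cannot be read from them, and without replicates the spread between libraries was not measured. A missing interval therefore means that none was called, not that the mark was absent, and fewer cells with the mark cannot be told apart from less of the mark per cell. The K27R list held 12845 intervals, the K27M list 3736 and the EZHIP list 4992, and the narrowest was 1.2 kb in each. Of 12 genes that fibroblasts typically express, such as Col1a1, Col3a1 and Vim, 11 had a start site outside all 3 lists, and the start site of Pdgfra lay inside all 3.

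Most amine receptors are single-chain membrane proteins that act through G proteins. Receptors coupled to Gs raise cyclic AMP, those coupled to Gi lower it, and those coupled to Gq release calcium, whereas Htr3a and Htr3b encode subunits of an ion channel. Their genes are used chiefly in neurons, heart, smooth muscle and other specialised cells. Genes of other lineages commonly lie in H3K27me3 domains in cells that do not use them, and PRC2 is known to be recruited to CpG islands, stretches rich in unmethylated CG dinucleotides, from which the mark can spread over long distances.

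The first comparison asked how many receptor genes began inside an H3K27me3 interval in the reference line and in the line with each inhibitor. In K27R, 27 of 36 start sites lay in an interval (75%, exact 95% interval 57.8 to 87.9%), against 28.2% of all genes. In K27M there were 16 (44.4%, 27.9 to 61.9%), against 8.94% of all genes. In EZHIP there were 15 (41.7%, 25.5 to 59.2%), against 7.96%. The number inside both inhibitor lists was 13 (36.1%, 20.8 to 53.8%), against 6.81%. All 4 shares of the receptor genes were higher than the shares of all genes. The intervals are exact Clopper-Pearson intervals, cover counting error only and take genes as independent, although some receptor genes lie in the same H3K27me3 region.

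Every receptor start site in K27M or EZHIP was also in K27R. Of the 27 start sites in K27R, 16 (59.3%, 38.8 to 77.6%) were also in K27M, where 31.6% of all genes with a K27R start site were. There were 15 (55.6%, 35.3 to 74.5%) also in EZHIP, against 28.2%, and 13 (48.1%, 28.7 to 68.1%) in both, against 24.1%. The number in neither was 9 (33.3%, 16.5 to 54.0%), against 64.3%. The 36 genes thus fell into 13 with a start site in all 3 lists, 3 in K27R and K27M, 2 in K27R and EZHIP, 9 in K27R only and 9 in no list.

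**Figure D1:**
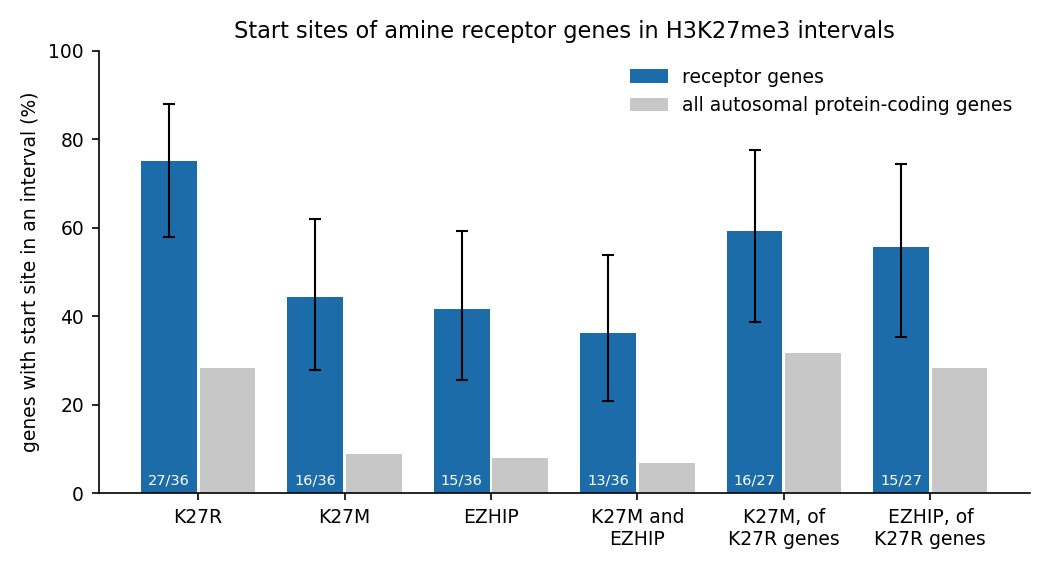
Percent of genes with the start site in an interval of each list (vertical axis), for the 36 receptor genes and for all genes, with error bars for the exact 95% interval of the receptor shares. The receptor bars stand at 75% in K27R, 44.4% in K27M and 41.7% in EZHIP, above those of all genes at 28.2%, 8.94% and 7.96%.

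The DNA around 5 start sites is printed, with start sites in all 3 lists, in K27R only and in none. Genes in a list were chosen by interval width and those in none by CG number. The 5 therefore do not span the CG content of the receptor genes. Each stretch runs from 250 bases before to 50 bases after the start site, was read from the mm9 genome, and has its CG dinucleotides in capitals. Adra2b and Htr7 had the widest EZHIP intervals among the genes in all 3 lists, at Adra2b chr2:127188694-127188993 (plus strand) and Htr7 chr19:36131948-36132247 (minus strand).
Adra2b: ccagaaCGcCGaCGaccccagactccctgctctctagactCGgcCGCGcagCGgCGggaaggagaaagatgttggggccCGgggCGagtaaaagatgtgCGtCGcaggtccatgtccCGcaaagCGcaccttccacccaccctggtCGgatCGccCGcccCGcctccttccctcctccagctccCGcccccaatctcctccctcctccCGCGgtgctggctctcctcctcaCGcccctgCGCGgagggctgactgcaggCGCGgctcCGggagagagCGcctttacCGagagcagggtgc
Htr7: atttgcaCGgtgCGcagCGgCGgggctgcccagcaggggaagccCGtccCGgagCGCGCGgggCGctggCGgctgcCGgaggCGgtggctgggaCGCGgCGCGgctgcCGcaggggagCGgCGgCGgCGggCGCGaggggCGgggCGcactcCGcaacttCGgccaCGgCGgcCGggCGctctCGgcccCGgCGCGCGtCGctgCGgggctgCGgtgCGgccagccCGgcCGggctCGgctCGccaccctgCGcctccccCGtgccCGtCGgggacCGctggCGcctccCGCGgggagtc
Htr3a had the widest K27R interval among the genes in K27R only, at Htr3a chr9:48719155-48719454 (minus strand).
Htr3a: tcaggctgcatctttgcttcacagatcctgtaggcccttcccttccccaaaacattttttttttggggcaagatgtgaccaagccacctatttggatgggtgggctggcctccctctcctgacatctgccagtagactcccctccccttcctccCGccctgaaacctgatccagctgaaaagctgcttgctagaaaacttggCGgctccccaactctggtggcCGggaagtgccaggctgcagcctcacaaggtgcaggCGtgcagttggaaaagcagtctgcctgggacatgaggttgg
Adra1d and Drd4 are the genes in no list whose sequences are shown, chosen for their CG dinucleotides, at Adra1d chr2:131387972-131388271 (minus strand) and Drd4 chr7:148477679-148477978 (plus strand).
Adra1d: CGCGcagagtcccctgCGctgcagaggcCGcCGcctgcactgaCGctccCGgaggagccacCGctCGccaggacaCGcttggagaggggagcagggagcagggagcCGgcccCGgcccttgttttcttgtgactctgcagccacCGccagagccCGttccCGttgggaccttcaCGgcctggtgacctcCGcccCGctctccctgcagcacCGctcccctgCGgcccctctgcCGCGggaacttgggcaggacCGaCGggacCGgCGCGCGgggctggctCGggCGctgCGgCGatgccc
Drd4: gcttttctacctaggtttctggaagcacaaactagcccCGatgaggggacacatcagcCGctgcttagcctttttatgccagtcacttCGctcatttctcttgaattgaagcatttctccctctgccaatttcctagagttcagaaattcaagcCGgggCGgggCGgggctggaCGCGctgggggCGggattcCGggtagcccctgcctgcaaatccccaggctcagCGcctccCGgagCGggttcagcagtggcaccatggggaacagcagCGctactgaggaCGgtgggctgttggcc

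The search word was CG, which reads the same on both strands, and 95.14% of all promoters of this length held at least 1. The median was 12 CG in all promoters and 14.5 in those of the receptor genes. Htr7 held 53 CG, a number reached by 0.584% of all promoters, and Adra2b held 29, reached by 15.6%. Htr3a, with no interval over its start site in either inhibitor list, held 4, reached by 74.8%. Adra1d, outside all lists, held 32, reached by 11.4%, and Drd4 held 15, reached by 44.2%. The count of CG describes these 5 sequences and not their classes. Htr3a does not stand for the 9 genes in K27R only, 5 of which had a CpG island at the start site.

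Of the 9 adrenergic receptor genes, 6 had a start site in K27R and 5 of these were in all 3 lists. The genes of the 3 alpha-2 receptors, which couple to Gi, were all among these 5. Adra2a, at 54119672 to 54123472 on the plus strand of chromosome 19, lay in a K27R interval of 105.2 kb, a K27M interval of 19.2 kb (54114801 to 54134000) and an EZHIP interval of 14.0 kb (54116601 to 54130600). Adra2b, at 127188944 to 127192957 on the plus strand of chromosome 2, lay in a K27R interval of 267.6 kb, a K27M interval of 49.4 kb (127160201 to 127209600) and an EZHIP interval of 38.2 kb (127161601 to 127199800). Adra2c, at 35621215 to 35624410 on the plus strand of chromosome 5, lay in a K27R interval of 517.6 kb, a K27M interval of 36.2 kb (35601401 to 35637600) and an EZHIP interval of 12.8 kb (35617401 to 35630200). These included the widest K27M and EZHIP intervals over any receptor start site, those of Adra2b, which also held the start sites of Astl and Dusp2. No other inhibitor interval over a receptor start site held the start of another gene.

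Adra1a, the gene of a Gq-coupled receptor that contracts smooth muscle, has a gene record of 135.92 kb at 67254088 to 67390005 on the plus strand of chromosome 14. Its K27R interval of 470.2 kb covered the gene from end to end, whereas 9.6 kb at 67250801 to 67260400 was called in K27M and 5.2 kb at 67252801 to 67258000 in EZHIP. Adrb1, which encodes the main beta receptor of heart muscle, at 56796862 to 56799352 on the plus strand of chromosome 19, had a K27R interval of 30.8 kb. The intervals over it were of near equal width in both inhibitor lists, 8.4 kb in K27M (56793401 to 56801800) and 8.0 kb in EZHIP (56793601 to 56801600). Adrb3, the beta receptor of fat cells, had its start site in K27R only, in an interval of 36.4 kb. A K27M interval of 2.0 kb (chromosome 8, 28336601 to 28338600) lay inside the Adrb3 gene, 1.5 kb from the start site, and covered 52.5% of the gene. Adra1b and Adra1d had start sites in no list.

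**Figure D2:**
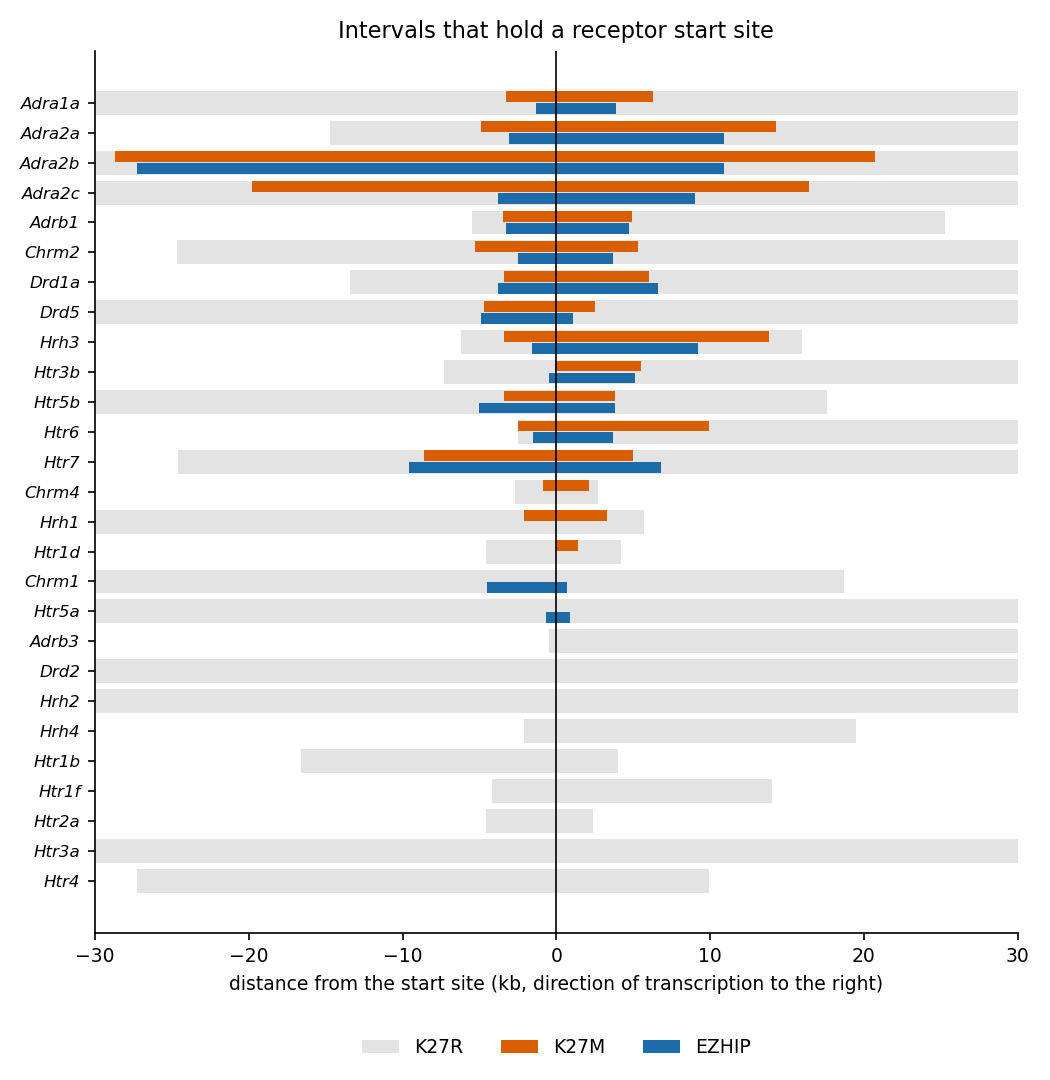
Extent of the interval that holds the start site of each of the 27 receptor genes in K27R, as distance from the start site in kb along the direction of transcription (horizontal axis), with grey bars for K27R, orange for K27M and blue for EZHIP. Grey bars that reach the edge of the plot continue beyond it, intervals that do not hold the start site are left out, and the K27M and EZHIP bars of the 13 genes in all 3 lists lie inside the grey bars.

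The 5 dopamine receptor genes differed by class of receptor, and this difference was not tested. Drd1a and Drd5, which encode the Gs-coupled receptors of the D1 class, had start sites in all 3 lists. Drd1a, at 54146555 to 54151027 on the minus strand of chromosome 13, lay in a K27R interval of 112.4 kb, a K27M interval of 9.4 kb (54145001 to 54154400) and an EZHIP interval of 10.4 kb (54144401 to 54154800). Drd5, at 38710748 to 38713549 on the plus strand of chromosome 5, lay in a K27R interval of 130.0 kb, a K27M interval of 7.2 kb (38706001 to 38713200) and an EZHIP interval of 6.0 kb (38705801 to 38711800). Of the Gi-coupled D2 class, Drd2 was in K27R only, and Drd3 and Drd4 were in no list. The records of Drd3 and Drd4 began only 21 and 8 bp before the coding start, and the Drd3 start site lay 4.7 kb from a K27R interval. Drd2, at 49148732 to 49216282 on the plus strand of chromosome 9, lay whole inside a K27R region of 358.0 kb (48906001 to 49264000). No K27M or EZHIP interval fell anywhere in that region, and the nearest were 375.5 kb and 375.1 kb from the start site.

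Of the 13 serotonin receptor genes, 11 had a start site in K27R, 5 in K27M, 5 in EZHIP and 4 in both inhibitor lists. Htr6 and Htr7, whose receptors couple to Gs, were 2 of the 4. Htr7, at 36033224 to 36131997 on the minus strand of chromosome 19, lay in a K27R interval of 93.4 kb, a K27M interval of 13.6 kb (36127001 to 36140600) and an EZHIP interval of 16.4 kb (36125201 to 36141600). Htr6, at 138617023 to 138631485 on the minus strand of chromosome 4, lay in a K27R interval of 48.6 kb, a K27M interval of 12.4 kb (138621601 to 138634000) and an EZHIP interval of 5.2 kb (138627801 to 138633000). The wider inhibitor interval was thus that of EZHIP at Htr7 and that of K27M at Htr6. Htr5b, at 123406419 to 123425042 on the minus strand of chromosome 1, lay in a K27R interval of 107.2 kb, a K27M interval of 7.2 kb (123421201 to 123428400) and an EZHIP interval of 8.8 kb (123421201 to 123430000).

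Htr3a and Htr3b, the genes of the channel subunits, are neighbours on chromosome 9 and share 1 K27R region of 474.8 kb (48305601 to 48780400), which also holds the start sites of Zbtb16 and Nnmt, so they are not separate observations in K27R. Htr3b, at 48743113 to 48773095 on the minus strand, had 5.6 kb over its start site in K27M (48767601 to 48773200) and 5.6 kb in EZHIP (48768001 to 48773600). The K27M interval began only 0.1 kb upstream of the Htr3b start site, and neither interval held a CpG island. A second K27M interval of 5.2 kb (48738001 to 48743200) reached into the far end of Htr3b. Htr3a had none over its start site, and the nearest K27M interval lay 12.6 kb away, with that of EZHIP farther off.

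Htr1d and Htr5a, both of Gi-coupled receptors, were each in only 1 inhibitor list and by a narrow interval. Htr1d, at 135979439 to 136000313 on the plus strand of chromosome 4, lay in 8.8 kb in K27R and 1.4 kb in K27M (135979401 to 135980800), with the nearest EZHIP interval 212.2 kb away. Htr5a, at 28168487 to 28181626 on the plus strand of chromosome 5, lay in 207.2 kb in K27R and 1.6 kb in EZHIP (28167801 to 28169400), with the nearest K27M interval 133.9 kb away. Counted with intervals of at least 2000 bp, neither gene stayed in an inhibitor list. Htr1b, Htr1f, Htr2a, Htr3a and Htr4 had start sites in K27R only, and Htr1a and Htr2b in no list.

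Among the muscarinic receptor genes, the Gi-coupled Chrm2, which slows the heart, was the only 1 of 5 in all 3 lists. Its start site, at 36338084 on the plus strand of chromosome 6, lay in a K27R interval of 71.4 kb, a K27M interval of 10.6 kb (36332801 to 36343400) and an EZHIP interval of 6.2 kb (36335601 to 36341800). Chrm4, at 91762346 to 91769986 on the plus strand of chromosome 2, lay in the narrowest K27R interval of all 27 genes, 5.4 kb, and in 3.0 kb in K27M (91761401 to 91764400). An EZHIP interval of 1.6 kb (91762601 to 91764200) began just inside Chrm4, so that its absence from the EZHIP start sites rested on a distance of 0.3 kb. Chrm1, a Gq-coupled receptor gene of the forebrain at 8738495 to 8758077 on the plus strand of chromosome 19, lay in 219.2 kb in K27R and 5.2 kb in EZHIP (8734001 to 8739200). For Chrm1 the nearest K27M interval was 1671.1 kb away. Chrm3 and Chrm5 had start sites in no list.

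All 4 histamine receptor genes had a start site in K27R. Hrh3, which encodes the Gi-coupled receptor that limits histamine release in the brain, at 179834170 to 179839193 on the minus strand of chromosome 2, lay in a K27R interval of 22.2 kb, a K27M interval of 17.2 kb (179825401 to 179842600) and an EZHIP interval of 10.8 kb (179830001 to 179840800). Intervals covered 77.5% of this K27R region in K27M and 48.6% in EZHIP, and the first was the highest such value among the receptor genes. Hrh1, the Gq-coupled receptor gene behind allergic responses, at 114347930 to 114433290 on the plus strand of chromosome 6, lay in the widest K27R interval of the 27 genes, 663.0 kb, near its downstream end. It had 5.4 kb in K27M (114345801 to 114351200), and the nearest EZHIP interval was 61.9 kb away. Hrh2, which drives acid secretion in the stomach, was in K27R only by its start site, in 201.8 kb. Within or reaching past the downstream end of Hrh2, however, 3 EZHIP intervals of 1.2, 2.8 and 7.6 kb (chromosome 13, 54288001 to 54289200, 54306401 to 54309200 and 54311201 to 54318800) covered 35.0% of the gene (10.6 kb). The first began 0.5 kb from the start site, and the third ran past the end of the gene at 54317801. The nearest K27M interval to Hrh2 was 133.1 kb away.

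Grouped by coupling, 8 of 9 Gs-coupled receptor genes had a start site in K27R and 5 in both inhibitor lists. For Gi the numbers were 13 and 6 of 16, for Gq 4 and 1 of 9, and for the channel subunits 2 and 1 of 2. A CpG island lay at the start site of 8 of the 9 Gs genes, 10 of the 16 Gi genes, 2 of the 9 Gq genes and neither channel gene. As a background, the shares across the 21418 genes were 28.2% for K27R, 6.81% for both inhibitor lists and 53.2% for an island. The coupling groups are small, and no test was made of their difference from each other or from this background.

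**Figure D3:**
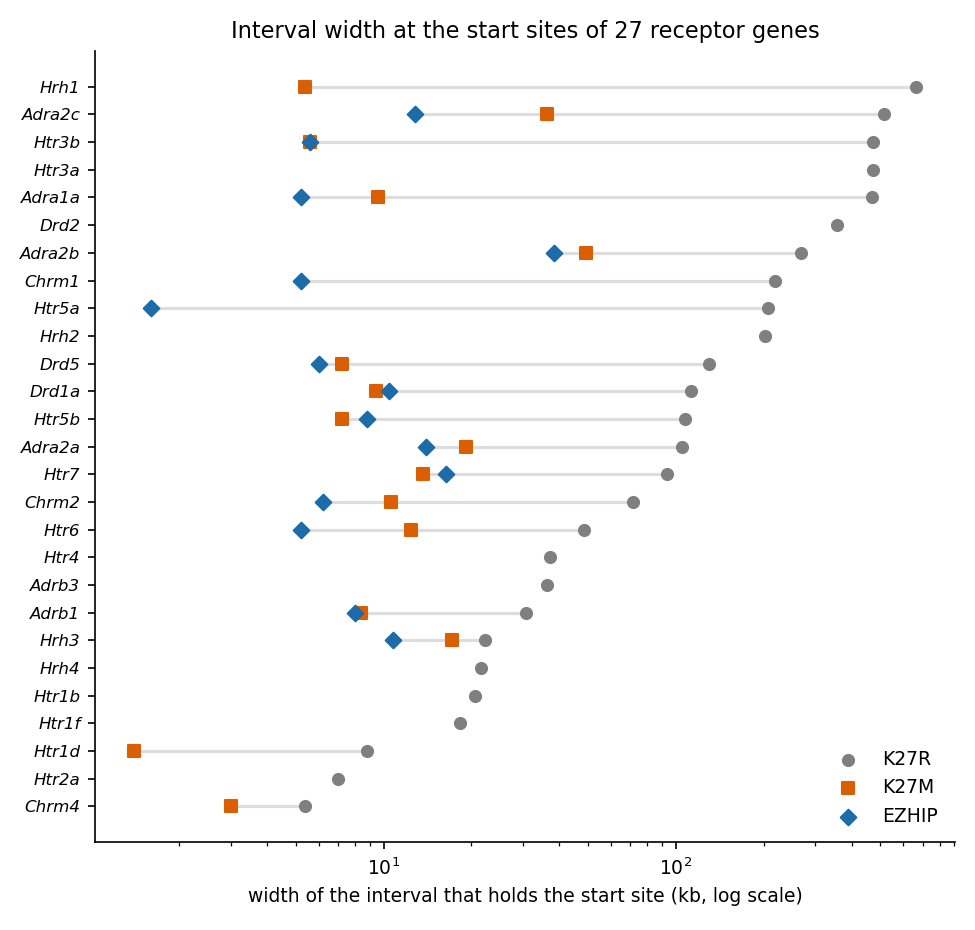
Width in kb (horizontal axis, log scale) of the interval that holds the start site of each of the 27 receptor genes in K27R, with circles for K27R, squares for K27M and diamonds for EZHIP, ordered by the K27R width. K27R widths run from 5.4 kb at Chrm4 to 663.0 kb at Hrh1, and each K27M and EZHIP width is below the K27R width of its gene.

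Where a start site lay in an interval in all 3 lists, the intervals differed in width. Over the 13 genes the median width was 107.2 kb (22.2 to 517.6 kb) in K27R, whereas for K27M it was 10.6 kb (5.6 to 49.4 kb) and for EZHIP 8.8 kb (5.2 to 38.2 kb). For the 1458 genes of any kind in all 3 lists, the medians were 132.4, 13.8 and 9.1 kb. The K27M interval was wider than the EZHIP interval at 9 of the 13 genes, narrower at 3 (Drd1a, Htr5b and Htr7) and equal at 1 (Htr3b). At 8 genes the EZHIP interval lay wholly inside the K27M interval, at 3 the reverse held, and at all 13 both lay inside the K27R interval. Such counts were not made for the 1458 genes, where the K27M median was also above that of EZHIP. Over the 13 genes, the median reach of K27R intervals was 24.6 kb upstream and 84.3 kb downstream of the start site. For K27M it was 3.5 and 6.0 kb, and for EZHIP 3.3 and 5.1 kb.

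Within the K27R regions over these 13 start sites, K27M intervals covered a median of 14.8% (2.34 to 77.5%) and EZHIP intervals 10.7% (1.36 to 52.2%). In the regions over the 9 start sites in K27R only, the median was 0 in both lists, and 7 of the 9 regions held no interval in each list. The exceptions were the region shared by Htr3a and Htr3b in both lists, that of Adrb3 in K27M and that of Hrh2 in EZHIP. The K27R widths of the 2 classes overlapped, at 22.2 to 517.6 kb and 7.0 to 474.8 kb. The members with the widest K27R intervals in the second class were Htr3a with 474.8 kb, Drd2 with 358.0 kb and Hrh2 with 201.8 kb, and the other 6 ranged from 7.0 kb at Htr2a to 37.2 kb at Htr4.

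**Figure D4:**
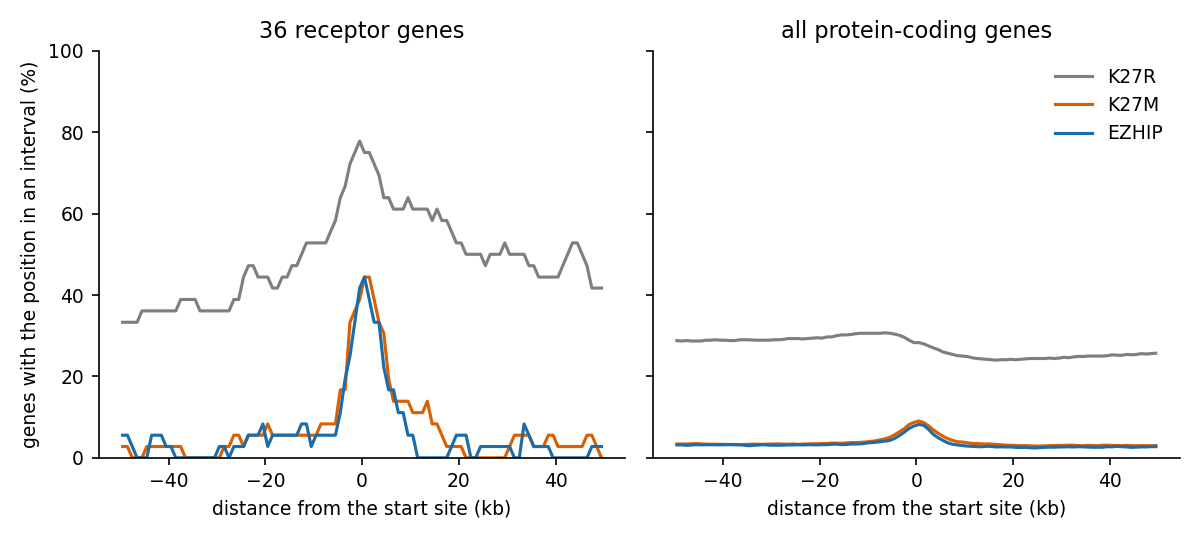
Percent of genes (vertical axis) with the position in an interval, by distance from the start site in kb (horizontal axis, downstream to the right), for the 36 receptor genes and for all genes, with 1 line per list. The receptor curves of K27M and EZHIP reach 44.4% in the first kb downstream of the start site, where all genes stand at 9.04% and 8.20%. The K27R curve reaches 77.8% in the first kb upstream, where all genes stand at 28.3%.

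The gene bodies gave a similar order. A K27R interval met 28 of 36 receptor genes (77.8%, against 34.2% of all genes), a K27M interval 17 (47.2%, against 11.3%) and an EZHIP interval 17 (47.2%, against 10.9%). Of the summed length of the 36 genes, 1363.3 kb, K27R intervals covered 58.0%, those of K27M 5.14% and those of EZHIP 4.76%. Over all genes, covered shares were 19.1%, 1.99% and 1.71%. From end to end, 17 of the 36 genes were covered in K27R, 6 in K27M and 6 in EZHIP. Of all 21418 genes, 3877, 567 and 401 were. The 6 receptor genes were the same in both inhibitor lists, namely Adra2a, Adra2b, Adra2c, Adrb1, Drd1a and Hrh3. These 6 are short genes of 2.49 to 5.02 kb. In long genes such as Adra1a, Chrm2 and Htr7, the inhibitor intervals covered only the region around the start site, at most 5.06% of the gene in K27M and 6.88% in EZHIP, both at Htr7.

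A CpG island lay within 500 bp of the start site of 20 receptor genes (55.6%, against 53.2% of all genes). Of the 27 genes with a K27R start site, 17 (63.0%, 42.4 to 80.6%) had an island, against 43.3% of all such genes. In genes with an island, 17 of 20 start sites (85.0%, 62.1 to 96.8%) were in K27R, against 23.0% of all genes with an island. In genes without one, 10 of 16 (62.5%, 35.4 to 84.8%) were, against 34.1%. The share of receptor genes was thus higher than that of all genes with an island and without. Without an island, the lower bound of 35.4% lay close to the 34.1% of all genes.

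Among genes with both an island and a K27R start site, the receptor genes stood nearer to the rest. Of these 17, 12 (70.6%, 44.0 to 89.7%) were also in K27M, against 56.0% of all such genes. In EZHIP there were 10 (58.8%, 32.9 to 81.6%), against 48.8%. Both intervals include the share of all such genes, but they take genes as independent and are not a test of difference. Of the 10 without an island, 4 were also in K27M (exact 95% interval 12.2 to 73.8%), against 13.0%, and 5 in EZHIP (18.7 to 81.3%), against 12.4%. These were Adra1a, Htr3b and Htr5b in both lists, Htr1d in K27M, and Chrm1 and Htr5a in EZHIP. At Htr5b and Htr1d the inhibitor interval itself held an island farther from the start site, and at Adra1a, Htr3b, Chrm1 and Htr5a it held none.

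Within 500 bp of the start site, the observed to expected CG ratio had a median of 0.709 (0.182 to 0.925) in the 13 genes in all 3 lists, 0.474 (0.170 to 0.774) in the 9 in K27R only and 0.349 (0.179 to 0.814) in the 9 in no list. The ranges of the classes overlapped nearly in full. Htr3b had the lowest ratio of the first class and Htr7 the highest. Genes with an island and a start site in K27R only were Drd2, Hrh2, Htr1b, Htr1f and Htr4. The islands of Hrh2, Htr1f and Htr4 were short, at 318, 246 and 430 bp, and with islands of at least 500 bp this count of 5 fell to 2.

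**Figure D5:**
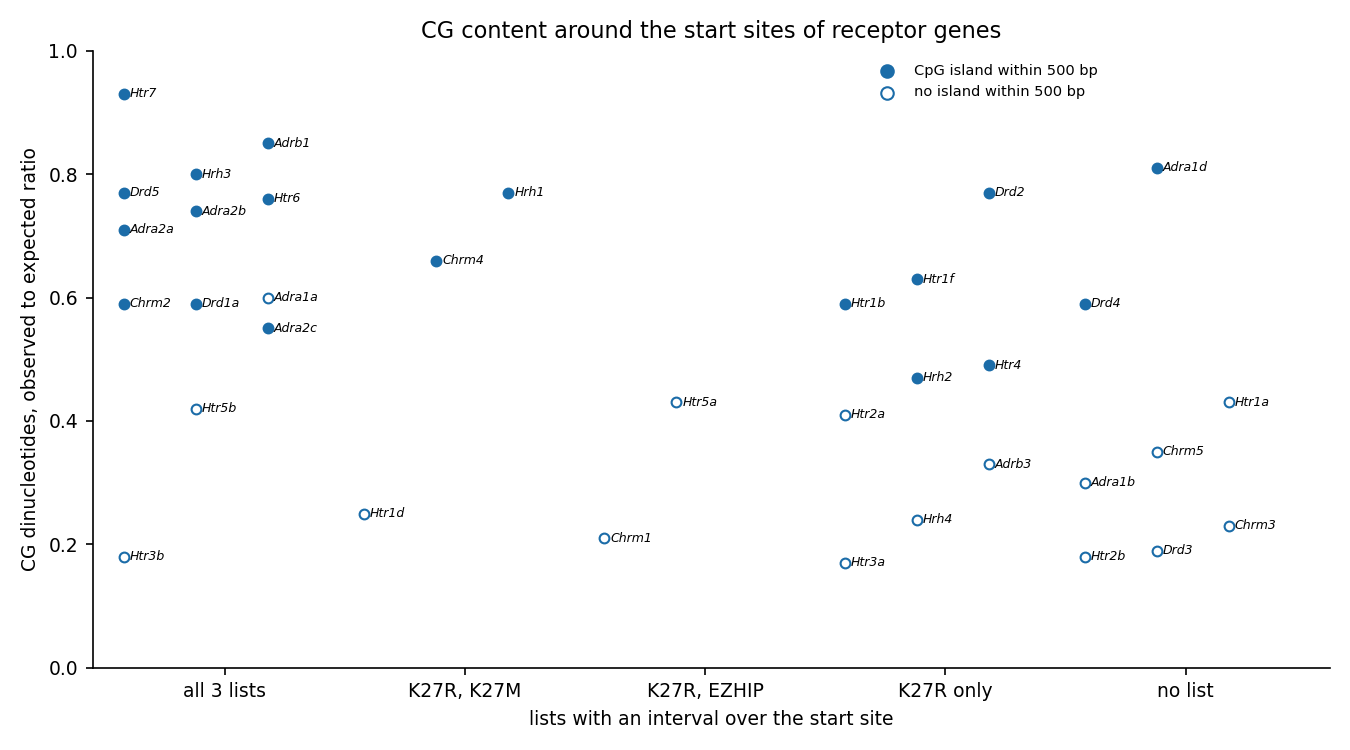
Observed to expected ratio of CG dinucleotides within 500 bp of each start site (vertical axis) for the receptor genes, set out by the lists that hold the start site (horizontal axis), with filled points for genes with a CpG island within 500 bp. The medians are 0.709 for the 13 genes in all 3 lists, 0.474 for the 9 in K27R only and 0.349 for the 9 in no list, and the points of these classes overlap. A gene in no list is counted in the median and not drawn.

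The 9 genes in no list included Adra1b, Adra1d, Chrm3, Chrm5, Drd3, Drd4, Htr1a and Htr2b. Their start sites lay 0.3 to 3683.9 kb from the nearest K27R interval, with a median of 103.2 kb. Chrm3, a Gq-coupled receptor gene of glands and smooth muscle (chromosome 13, 9876381 to 9878329, minus strand), was nearest, 0.3 kb from an interval of 20.2 kb at 9878601 to 9898800. Drd3 (chromosome 16, 43762334 to 43823045, plus strand) lay 4.7 kb from an interval of 6.8 kb at 43750801 to 43757600, and other K27R intervals covered 24.8% of its gene body. Drd4 was farthest, at 3683.9 kb. No gene of the 9 met an inhibitor interval in its body.

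Start sites were those of the annotation, and for some genes the record limits what was measured. The records of 7 receptor genes began 0 to 85 bp before the coding start, those of Chrm3 and Chrm5 at 85 and 48 bp, and these 2 records spanned only 1.95 and 1.75 kb. Any first exon upstream of such a record was not measured. Of the 7 genes, Chrm3, Chrm5, Drd3 and Drd4 were in no list, and Adrb1, Hrh4 and Htr1b were in K27R. The limit thus also bears on the CG values of the class in no list. In Chrm2, Htr1f, Hrh1, Adra1b and Drd2, by contrast, the start site lay 135126, 178857, 81824, 65122 and 54989 bp from the coding start. Of these genes, only Adra1b was in no list.

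The genes that make, move and break down the same transmitters were set beside the receptors, from lists of known enzymes and transporters. Of 8 synthesis genes, 5 had a start site in K27R and 1 in each inhibitor list. This was Chat, which makes acetylcholine, in a K27R interval of 142.0 kb, a K27M interval of 19.2 kb and an EZHIP interval of 13.2 kb. Dbh and Pnmt, of noradrenaline and adrenaline synthesis, and Tph1 and Tph2, of serotonin synthesis, were in K27R only, and Th, Ddc and Hdc were in no list. Of 10 transport genes, 9 were in K27R, 7 in K27M and 6 in EZHIP.

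The 6 transport genes in all 3 lists included the plasma membrane transporters of noradrenaline (Slc6a2), dopamine (Slc6a3) and serotonin (Slc6a4) and the vesicle transporter Slc18a2. Their K27M intervals were 10.0, 15.2, 4.0 and 9.0 kb and their EZHIP intervals 3.8, 6.0, 4.8 and 6.4 kb. The choline transporter gene Slc5a7 was in K27R and K27M. Of 4 degradation genes, Ache, which breaks down acetylcholine, was in all 3 lists, Hnmt was in K27R only, and Bche was in none. Over the 22 genes of these lists, 16 start sites were in K27R, 9 in K27M and 8 in EZHIP.

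Related families were set beside the amine receptors, whose shares were 75%, 44.4% and 41.7%, and all genes, with 28.2%, 8.94% and 7.96%. Of 16 nicotinic receptor genes, the ion channels for acetylcholine, 14 start sites were in K27R (87.5%), 4 in K27M and 3 in EZHIP (18.8%). All 15 trace amine receptor genes, close relatives of the amine receptors, were in K27R and none in an inhibitor list. None had an island at its start site. Whether these 15 start sites lie in separate K27R intervals is not given here. Of 46 glutamate, GABA and glycine receptor genes, 36 were in K27R (78.3%), 22 in K27M (47.8%) and 14 in EZHIP (30.4%). Of 93 potassium channel genes, the numbers were 71 (76.3%), 51 (54.8%) and 38 (40.9%). Shares above those of all genes in each list were thus found in both of these larger groups as well as in the amine receptors. Both of the larger groups had more start sites in K27M than in EZHIP, as did all genes with 1915 and 1705. In the amine receptors the numbers were 16 and 15, and they became 16 and 17 when 1000 bp was allowed. These differences between families were not tested, since genes of one library are not replicates.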

How the data were processed

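H3K27me3 ChIP-Seq libraries of MEFs with K27R, K27M or EZHIP were analysed, 1 per group, with groups taken from sample titles. Per the labels, MNase reduced the crosslinked chromatin to mononucleosomes before immunoprecipitation. By the submitters' processing notes and the study's methods, the authors aligned reads with Bowtie 1.0.0 to mm9 and to a spike-in genome and called broad intervals with the hidden Markov model of MOSAiCS-HMM, which works on binned counts. Whether spike-in scaling entered the calls is not given in the sources used here. The deposited lists hold chromosome, start and end on a 200 bp grid, with no score or count, so they were used as positions and depth is unknown. Positions are printed counting from 1.

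Gene bodies and 5′ ends came from GENCODE vM1, on the same build (NCBIM37, mm9). A start site was in a list when an interval contained it, and a gene body met an interval when they shared at least 1 bp. CpG islands were found in mm9 by scoring 17 for each CG and -1 otherwise, keeping segments above 200 bp with at least 50% GC and an observed to expected ratio above 0.6. Repeats were left unmasked, and 23502 islands were found. Shares carry exact 95% Clopper-Pearson intervals, and no p-value was computed because no group had a replicate. Python 3.11.15, numpy 2.4.6, scipy 1.17.1 and numba 0.67.0 were used, and the interval and island code was tested on simulated data.

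The receptor group, the lists of other families and the alternatives were chosen with earlier results of these data known. Membership within the group follows from gene symbols alone. Named with positions were genes with a start site or gene body in K27M or EZHIP, the 3 with the widest K27R interval in K27R only, and the 3 nearest to K27R outside it. Some genes and a sequence that this rule names are not reported here. Sequences are those of the 2 genes in each class with the widest EZHIP interval, the widest K27R interval or the most CG, with chromosome 18 left out. Of 11 listed transport genes, 10 matched the annotation by symbol, and all genes of the other named lists matched. Alternatives were other start site distances and transcripts, minimum widths, merging of intervals within 10000 bp, other cover measures, island definitions and means.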

Additional observations from a re-analysis of the deposited data

How the results depend on the processing

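Of 52 values computed under other settings, 43 stayed within 1.5 times the value reported and 9 did not. As a median over genes rather than a share of summed length, cover was 95.1% in K27R (58.0% as reported) and 0 in K27M and EZHIP (5.14% and 4.76%). With 5000 bp added to both ends of each gene, cover was 9.03% in K27M and 8.12% in EZHIP. Counting gene bodies covered over at least 50% of their length gave 9 genes in K27M and 6 in EZHIP, against 17 in each. With islands of at least 500 bp, the genes in K27R only with an island numbered 2, against 5. The mean K27R width over the 13 genes in all 3 lists was 188.6 kb, against a median of 107.2 kb. The counts of start sites stayed within 1.5 times under every alternative computed for them. Allowing 1000 bp added Chrm3 to K27R and Chrm4 and Hrh2 to EZHIP, and allowing 5000 bp further added Drd3 to K27R and Adrb3 to K27M. Intervals of at least 2000 bp dropped Htr1d from K27M and Htr5a from EZHIP, and intervals of at least 5000 bp also dropped Chrm4 from K27M. No paired analysis was possible because each group had 1 library, and leaving out a replicate was not possible for the same reason. Without read counts, a missing interval cannot be told apart from one below the caller's threshold.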

Other observations

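Htr2c, the gene of a Gq-coupled serotonin receptor used in the brain, lies on chromosome X (143397056 to 143631820, plus strand) and was not among the 36 genes. Its start site lay in a K27R interval of 232.0 kb (143371801 to 143603800) that covered 90.3% of the gene. No K27M or EZHIP interval met it, and the nearest were 2269.3 kb and 2271.7 kb from the start site.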
